A study of Mus musculus with 4 samples.

Results

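Hyaluronan is a long sugar chain that synovial fibroblasts secrete into joint fluid and matrix. Synthases in the cell membrane build it from UDP-glucuronate and UDP-N-acetylglucosamine, binding proteins cross-link it or anchor it to cells, and hyaluronidases cut it. Described here are genes that encode its precursor enzymes (Ugdh, Uap1), synthases (Has1, Has2), binding proteins (Tnfaip6, Vcan, Cd44) and hyaluronidases (Hyal1, Hyal2). They were chosen by name, with earlier results of these data known. A probe set is a group of short probes on the array that reads 1 transcript. It counted for a gene only where its annotation named that gene alone. This gave 16 probe sets for 8 of the 9 genes, among 12393 genes with such a probe set. Hyal1 is not analysed here, because each of its 2 probe sets names a second gene as well.

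RNA from mouse synovial fibroblasts was hybridised to 4 Affymetrix arrays, 1 array per treatment. The cells came from knee joints of naïve male DBA/1J mice aged 8 to 12 weeks and had been passaged 3 to 4 times. How many mice gave the cells, and whether they were pooled, is not given in the sources used here. All dishes were kept in medium with 1% serum and were treated for 6 h. One dish received vehicle. Another received IL-1β, an inflammatory cytokine, at 5 ng/ml. The third received the same IL-1β with 1 µM indomethacin, which blocks the cyclooxygenases and so the synthesis of prostanoids. The last received IL-1β, indomethacin and 1 µM iloprost, a stable analogue of prostacyclin. No dish received a drug without IL-1β. Below, indomethacin stands for IL-1β and indomethacin, and iloprost for IL-1β with both drugs. The series title names the effect of prostacyclin signalling on fibroblasts activated by IL-1β as the question. IL-1β with iloprost but without indomethacin is not analysed here.

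Each treatment is a single array, so no difference below has an error between dishes or a test, and every ratio describes these 4 dishes only. The number of arrays limits the precision. Signals are the deposited linear intensities. Log2 ratios are given relative to the median gene, since the median gene differed by up to 0.23 on the log2 scale between arrays. Signals under 37.6, the 50th percentile over the 4 arrays, were raised to that floor, so a ratio with 1 array at the floor is a bound. As a measure of precision within an array, log2 ratios of probe sets of the same gene differed with an SD of 0.20 to 0.22, depending on the comparison. All 16 fibroblast markers checked, such as Col1a2, Pdgfra and the synovial lubricin gene Prg4, were above the floor on every array. So were all 17 macrophage markers checked, such as Csf1r and Lyz2, while 0 of 6 endothelial and 0 of 5 lymphocyte markers were above it on any array, and of the chondrocyte markers 1 of 6, Comp, was. Fibroblasts and macrophages can both express Cd44, Vcan and the hyaluronidases, and their shares in these signals were not tested. Fewer cells of a type and less RNA per cell cannot be told apart in such bulk samples.

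The promoter sequences of 2 members with unlike values under iloprost, and a short stretch of another one, Has1, are shown here. They were picked by those values or, for Has1, by its match, so a contrast between them comes with the choice. The search was made because cAMP, the second messenger of the prostacyclin receptor, is known to act through a DNA element, TGACGTCA. RefSeq's table for GRCm38.p6 holds a promoter for 8 of the 9 genes, all but Has2. The 250 bases before each start site were searched on both strands for that cAMP response element, for its core TGACG (which the full element contains), for the AP-1 site TGANTCA and for the NF-κB consensus. Capitals mark the matches below, printed 5′ to 3′ along each gene's own strand. The Uap1 promoter (chr1:170174965-170175214, minus strand) and the Tnfaip6 promoter (chr2:52037863-52038112, plus strand) are shown in full, and the Has1 stretch (chr17:17855253-17855282, minus strand) holds 30 bases.
Uap1: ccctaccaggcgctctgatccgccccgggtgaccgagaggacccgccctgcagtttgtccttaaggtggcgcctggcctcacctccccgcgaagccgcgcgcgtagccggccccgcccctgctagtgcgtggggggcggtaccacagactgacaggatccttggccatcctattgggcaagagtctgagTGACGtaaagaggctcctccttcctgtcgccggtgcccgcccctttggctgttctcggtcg
Tnfaip6: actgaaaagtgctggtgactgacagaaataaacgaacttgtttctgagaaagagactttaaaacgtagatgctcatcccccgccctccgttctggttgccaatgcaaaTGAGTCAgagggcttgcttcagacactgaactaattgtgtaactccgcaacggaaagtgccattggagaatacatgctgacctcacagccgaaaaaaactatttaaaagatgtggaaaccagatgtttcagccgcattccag
Has1: cagacttgtccTGACGTCAgccctcctcca

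The full cAMP response element occurred in the Has1 window alone among these 8, Hyal1 included, from base -83 to -76 relative to the start site, against 1.55% of all 32817 windows of that length. Its core occurred in 2 of the 8 windows, against 17.7% of all windows. These were Has1, where it is part of the full element, and Uap1, where it lay from base -61 to -57. The AP-1 site occurred in Tnfaip6 alone, from base -142 to -136, against 6.75% of windows, and the NF-κB consensus in Hyal2 alone, against 3.9%. Counts of 1 or 2 among 8 windows do not set the members apart from these shares. The Ugdh, Vcan, Cd44 and Hyal1 windows held none of these letters. With iloprost against indomethacin, Ugdh, Vcan, Uap1 and Has1 were past 2-fold, and Cd44, Tnfaip6 and Hyal2 were not. A match describes the letters in this window and is not a measured binding site. Whether these letters bear on the signals was not tested.

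Uap1 and Ugdh make the precursors of hyaluronan, and both were higher with IL-1β, lower when indomethacin was added and high again when iloprost was added. Uap1, which makes UDP-N-acetylglucosamine, had a signal of 256.0 with vehicle, 2155.6 with IL-1β, 247.9 with IL-1β and indomethacin and 2689.4 with iloprost added. The arrays thus fell into a low pair, vehicle and indomethacin, and a high pair, IL-1β and iloprost. Relative to the median gene, Uap1 was 7.20-fold higher with IL-1β than with vehicle, 7.85-fold lower with indomethacin than with IL-1β alone, and 10.8-fold higher with iloprost than with IL-1β and indomethacin. It ranked 13 from the highest of 6964 genes in the first of these comparisons, 2 from the lowest of 6932 in the next, and 5 from the highest of 6986 in the last. Within the low pair the log2 ratio of IL-1β and indomethacin to vehicle was -0.12, within the SD between probe sets. Of the other Uap1 probe sets, 2 were above the floor on every array and gave log2 ratios of 2.94 and 2.96 for IL-1β, -2.74 and -2.80 for indomethacin, and 2.77 and 2.87 for iloprost against indomethacin, where the brightest one gave 2.85, -2.97 and 3.43. The remaining 2 lay at or near the floor. With the mean of all 5 probe sets in place of the brightest, the log2 ratios were 1.72, -1.70 and 1.93.

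Ugdh, which oxidises UDP-glucose to UDP-glucuronate, had a signal of 581.0 on the vehicle array, 2085.7 on the IL-1β array, 860.0 with indomethacin added and 2223.7 with iloprost added as well. The high pair was the same as for Uap1, but the indomethacin array stayed above vehicle, at a log2 ratio of 0.49. Ugdh was 3.07-fold higher with IL-1β, 2.19-fold lower with indomethacin and 2.57-fold higher with iloprost than with indomethacin. Its log2 ratio of iloprost to IL-1β alone was 0.23, close to the SD between probe sets.

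**Figure D1:**
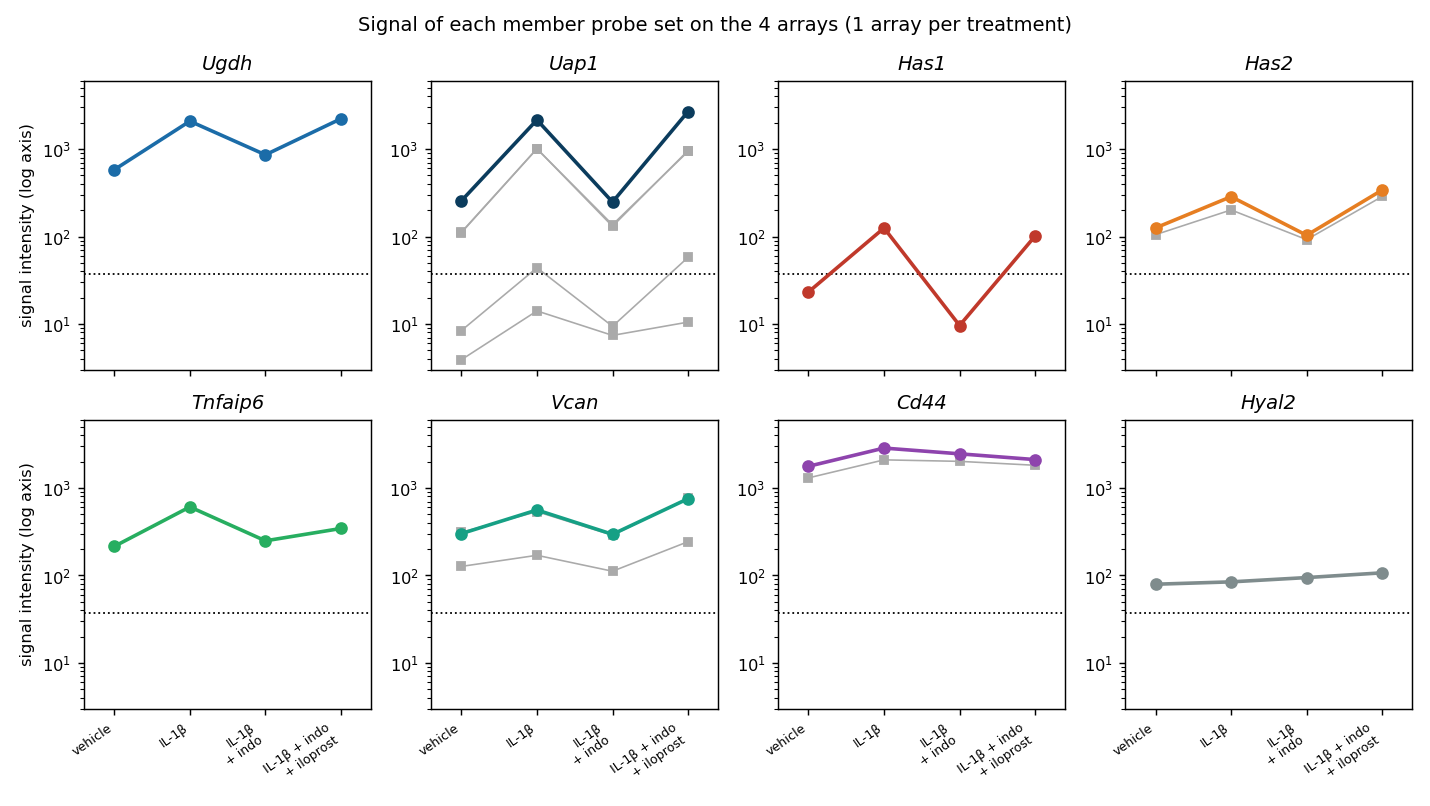
Signal intensity (log axis) of every probe set of the 8 members on the 4 arrays, where coloured circles are the probe set used for a gene, grey squares its other probe sets and the dotted line the floor of 37.6. Lines join the values of 1 probe set and imply no course in time. Uap1, Ugdh, Has1, Has2 and Vcan are high with IL-1β and with iloprost added, Tnfaip6 is highest with IL-1β, and Cd44 and Hyal2 vary little.

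Both synthases read low on the vehicle and indomethacin arrays. Has2, a hyaluronan synthase, had a signal of 125.4 on the vehicle array, 285.7 on the IL-1β array, 103.3 with indomethacin added and 340.4 with iloprost added as well. Its highest value was with iloprost and its lowest with indomethacin. Has2 was 1.95-fold higher with IL-1β than with vehicle, just short of 2-fold, 2.50-fold lower with indomethacin and 3.28-fold higher with iloprost than with indomethacin. A second Has2 probe set read 105.0, 201.5, 92.1 and 287.0 in the same order of arrays. It gave log2 ratios of 0.71, -0.98 and 1.63, against 0.96, -1.32 and 1.71 for the brighter one, so the indomethacin difference lay on either side of 2-fold in the pair.

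Has1, another synthase of the family, was above the floor only with IL-1β, at 125.1, and with iloprost, at 101.4. With vehicle it read 23.2 and with indomethacin 9.6, both under the floor, so these 2 values have no order. The bounds are at least 2.85-fold higher with IL-1β than with vehicle, at least 3.00-fold lower with indomethacin than with IL-1β, and at least 2.68-fold higher with iloprost than with indomethacin. With the floor at the 65th percentile, a signal of 87.0, these bounds shrank to log2 values of 0.27, -0.38 and 0.25, all within 2-fold, and the bound against vehicle with both drugs fell from 1.34 to 0.14. Between IL-1β alone and both drugs, where both values were measured, the log2 ratio was -0.16. The remaining synthase gene, Has3, was under the floor on all 4 arrays, with signals from 0.6 to 5.6.

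The binding proteins differed from one another. Vcan encodes versican, a large proteoglycan whose end domain binds hyaluronan. It read 301.0 on the vehicle array, 561.3 on the IL-1β array, 295.6 with indomethacin added and 755.2 with iloprost added as well. Vehicle and indomethacin were again the low pair, and iloprost gave the highest value. Vcan was 1.59-fold higher with IL-1β and 1.71-fold lower with indomethacin, both within 2-fold, and 2.54-fold higher with iloprost than with indomethacin. The other 2 Vcan probe sets gave log2 ratios of 0.56 and 0.20 for IL-1β, -0.75 and -0.46 for indomethacin, and 1.40 and 1.11 for iloprost.

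Tnfaip6 encodes TSG-6, a secreted protein that binds hyaluronan and moves heavy chains of inter-α-inhibitor onto it. Its signal was 215.1 on the vehicle array, 608.3 on the IL-1β array, 249.0 with indomethacin added and 344.7 with iloprost added as well. Only the IL-1β array stood high, and the iloprost array lay between it and the low pair. Tnfaip6 was 2.42-fold higher with IL-1β, 2.21-fold lower with indomethacin and 1.38-fold higher with iloprost than with indomethacin. With both drugs it was 1.60-fold lower than with IL-1β alone, where Uap1, Ugdh, Has2, Vcan and Hyal2 were 1.37-fold, 1.17-fold, 1.31-fold, 1.48-fold and 1.40-fold higher. Cd44 and Has1 were lower there too, by 1.23-fold and 1.12-fold. In this comparison the other Uap1 probe sets above the floor on every array gave only 1.03-fold and 1.05-fold, within the SD between probe sets. Another, near the floor, gave 1.45-fold. The second Has2 probe set gave 1.57-fold higher, the other Vcan probe sets 1.57-fold and 1.58-fold higher, and the second Cd44 probe set 1.05-fold lower. These values have no replicate check.

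Cd44, the main cell-surface receptor for hyaluronan, read 1771.8 on the vehicle array, 2863.9 on the IL-1β array, 2461.2 with indomethacin added and 2114.2 with iloprost added as well. It was highest with IL-1β, and its range across arrays was narrow. On the log2 scale it stood at 0.47 for IL-1β against vehicle, at -0.07 for indomethacin against IL-1β and at -0.23 for iloprost against indomethacin. The second Cd44 probe set gave 0.46, 0.09 and -0.16. The sign for indomethacin thus differed between its probe sets, both within the SD between probe sets of a gene. As deposited, without scaling to the median gene, the Cd44 ratios were all shifted by the difference in brightness, 0.23 for IL-1β, -0.15 for indomethacin and 0.01 for iloprost. Hyal2, a hyaluronidase anchored to the cell surface, had signals of 79.4, 84.5, 94.6 and 107.2 in the same order. Its log2 ratio of both drugs to vehicle was 0.35, and none of its ratios reached 2-fold.

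**Figure D2:**
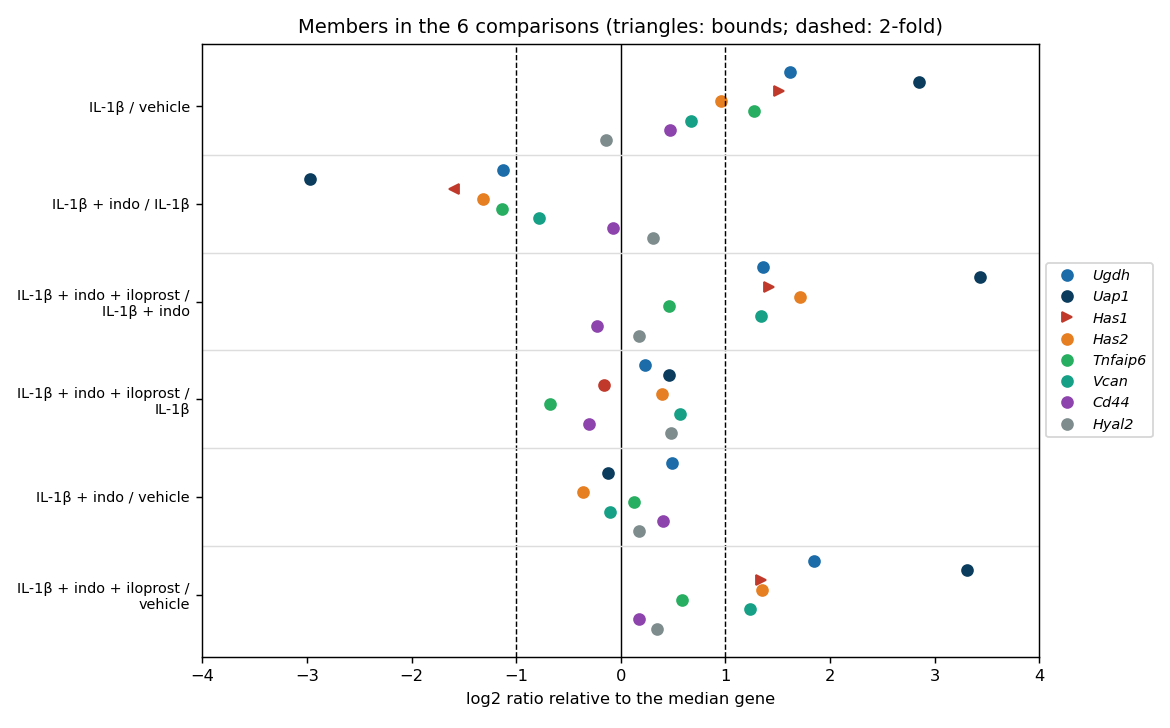
Log2 ratio relative to the median gene for each of the 8 members (colours) in the 6 comparisons of the 4 arrays, where circles are measured ratios, triangles are bounds with 1 array at the floor and dashed lines mark 2-fold. Members spread beyond 2-fold in 4 comparisons and lie within it for both drugs against IL-1β and for IL-1β and indomethacin against vehicle.

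With IL-1β against vehicle, 4 of 8 members were at least 2-fold higher (Uap1, Ugdh, Has1 and Tnfaip6), where 1.72% of 6964 genes were, and 0 were at least 2-fold lower, where 0.56% of genes were. The median log2 ratio was 1.12 for the members and -0.02 for all genes. With indomethacin against IL-1β alone, 5 of 8 members were at least 2-fold lower (Uap1, Has1, Has2, Tnfaip6 and Ugdh), where 0.664% of 6932 genes were, and 0 were higher, where 0.245% were. The median was -1.14, and that of all genes 0.00. With iloprost against IL-1β and indomethacin, 5 of 8 members were at least 2-fold higher (Uap1, Has2, Has1, Ugdh and Vcan), where 1.98% of 6986 genes were, and 0 were lower, where 3.19% were. The median was 1.35, and that of all genes 0.04. These comparisons share arrays, so opposite values in neighbouring comparisons are not independent of each other. The members were chosen with earlier results of these data known. Their counts, here and below, thus do not come from a list independent of these arrays.

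The comparison of IL-1β and indomethacin with vehicle holds the effects of both agents, and the data used here give no prostanoid levels. In it, 0 of 7 members with a ratio were past 2-fold in either direction, where 1.32% of 6804 genes were higher and 0.323% lower. The values ran from -0.36 for Has2 to 0.49 for Ugdh, with a median of 0.13 against -0.02 for all genes. With both drugs against vehicle, 5 of 8 members were at least 2-fold higher, the same that were higher with iloprost against indomethacin, where 2.72% of 6983 genes were, and 0 were lower, where 3.34% were. The largest values were 9.89-fold for Uap1 and 3.60-fold for Ugdh, with a median log2 ratio of 1.29 against 0.02 for all genes. With both drugs against IL-1β alone, 0 of 8 members were past 2-fold, where 0.95% of 7050 genes were higher and 2.37% lower. There the members ran from -0.68 for Tnfaip6 to 0.57 for Vcan, with a median of 0.31 against 0.03 for all genes.

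**Figure D3:**
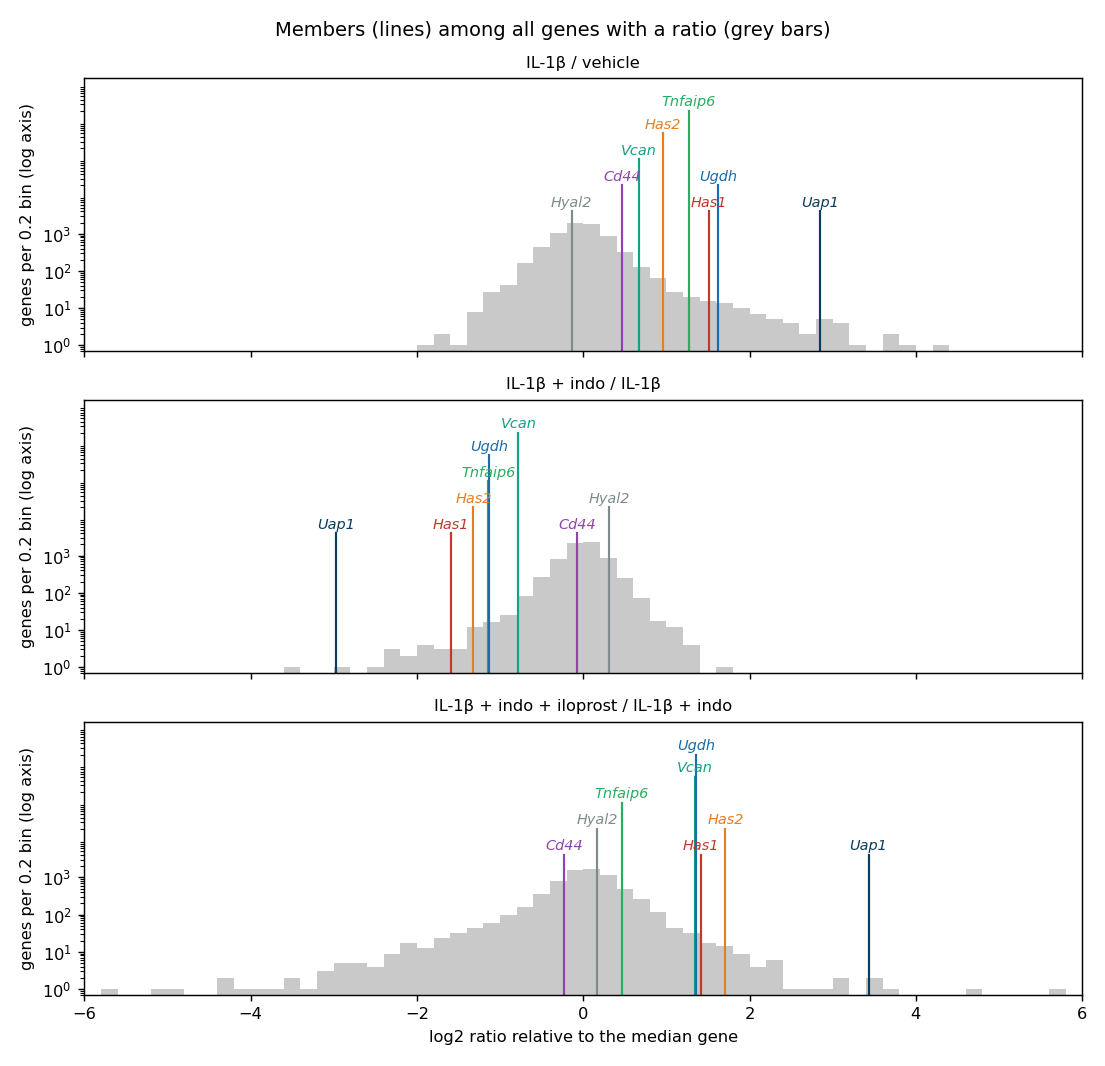
Number of genes per bin of 0.2 in log2 ratio relative to the median gene (grey bars, log axis) in 3 comparisons, with a coloured line at each member's ratio; Has1 is a bound in each, and the heights of the lines carry no value. Uap1 lies near the end of the distribution in each panel, while Cd44 and Hyal2 lie in its centre or on its shoulder.

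Other enzymes that make nucleotide sugars moved less than Uap1 and Ugdh, apart from Gfpt2. Gfpt2, an enzyme of the committed step into the hexosamine pathway, read 102.8 on the vehicle array, 450.6 on the IL-1β array, 186.7 with indomethacin added and 486.1 with iloprost added as well. Its log2 ratios were 1.91, -1.12 and 1.37, a low and a high pair like those of Ugdh. Gfpt1, its relative for the same step, was within 2-fold at 0.56, -0.59 and 0.43. Gnpnat1, which acetylates glucosamine-phosphate, was at 0.76, -0.02 and -0.16, and Ugp2, which makes UDP-glucose, at 0.31, -0.19 and 0.31. Of 12 such genes measured, 1 was at least 2-fold higher with IL-1β, 1 lower with indomethacin and 2 higher with iloprost against indomethacin, Gfpt2 in each case and the phosphoglucomutase gene Pgm1, at 1.07, in the last. Of all genes, 1.72%, 0.664% and 1.98% passed 2-fold in these directions. The list medians were 0.30, -0.06 and 0.34. Uap1l1, a gene related in sequence to Uap1, was at -0.29, 0.05 and -0.27.

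Of the other genes of hyaluronan synthesis and turnover, 4 of 7 with a probe set were above the floor. Cemip, which encodes a hyaluronan-degrading protein of fibroblasts, read 95.2 on the vehicle array, 266.4 on the IL-1β array, 289.7 with indomethacin added and 160.8 with iloprost added as well. It was at least 2-fold higher than vehicle both with IL-1β, at a log2 ratio of 1.26, and with IL-1β and indomethacin, at 1.53. It was at -0.86 with iloprost against indomethacin, so the iloprost array read lower here and higher for the synthases. Cemip2, the gene of a related surface protein, was at 0.69, 0.16 and -0.14. Gusb and Hexa, lysosomal enzymes that finish the breakdown, stayed between -0.20 and 0.04 in all 6 comparisons. Hyal3 and Spam1 were under the floor on every array.

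Few other hyaluronan-binding genes were measured in these cells. Of 21 with a probe set, 7 had a ratio, and 0 of these were past 2-fold in any of the 6 comparisons. Of all genes, only 0.245% to 3.34% were past it per direction and comparison, so 0 of 7 does not set this list apart. Ptx3, which encodes pentraxin 3, a partner of TSG-6 in hyaluronan matrix, read 2462.2, 3428.3, 2801.1 and 2470.8 in the order of vehicle, IL-1β, indomethacin and iloprost, with log2 ratios of 0.25, -0.14 and -0.19. Hmmr, a hyaluronan receptor of dividing cells, lay at or near the floor. Its signal with vehicle was 21.7, under the floor, so its ratios to vehicle are lower bounds. Whether it passed 2-fold there cannot be told. The innate receptor gene Tlr2, at -0.94 with both drugs against IL-1β alone, had the lowest ratio of the list. The link protein genes Hapln1 and Hapln2, the aggrecan gene Acan and the inter-α-inhibitor heavy chain genes Itih1 to Itih5 were under the floor on all arrays.

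Genes around CD44 and versican were also described. Of 7 CD44 linkers and sheddases, 0 were past 2-fold with IL-1β or with indomethacin against IL-1β, and 1 was lower with iloprost against indomethacin, Ezr, which encodes the membrane linker ezrin, at -1.03. Ezr was also lower with both drugs against IL-1β alone, at -1.11, and Mmp9, a matrix protease, was higher for IL-1β and indomethacin against vehicle, at 1.05. Of all genes, 1.72% were at least 2-fold higher and 0.56% lower with IL-1β, and 0.245% and 0.664% with indomethacin against IL-1β. With iloprost against indomethacin 3.19% were lower, and with both drugs against IL-1β alone 2.37%. For IL-1β and indomethacin against vehicle, 1.32% were higher. The list median for iloprost against indomethacin was -0.60, where the median of all genes was 0.04. The related linkers Rdx and Msn were at -0.60 and -0.41. The sheddases differed, with Adam17 and Mmp9 at -0.91 and -0.98, Mmp14 at -0.39 and Adam10 at 0.06. Of the proteases that cut versican, Adamts1 read 111.9, 502.1, 193.7 and 297.8, with log2 ratios of 1.94, -1.23 and 0.61. Adamts4 was higher with IL-1β, at 2.55, and at -0.03 with indomethacin and -0.28 with iloprost. Adamts5 was at 0.84, -0.91 and 0.38.

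**Figure D4:**
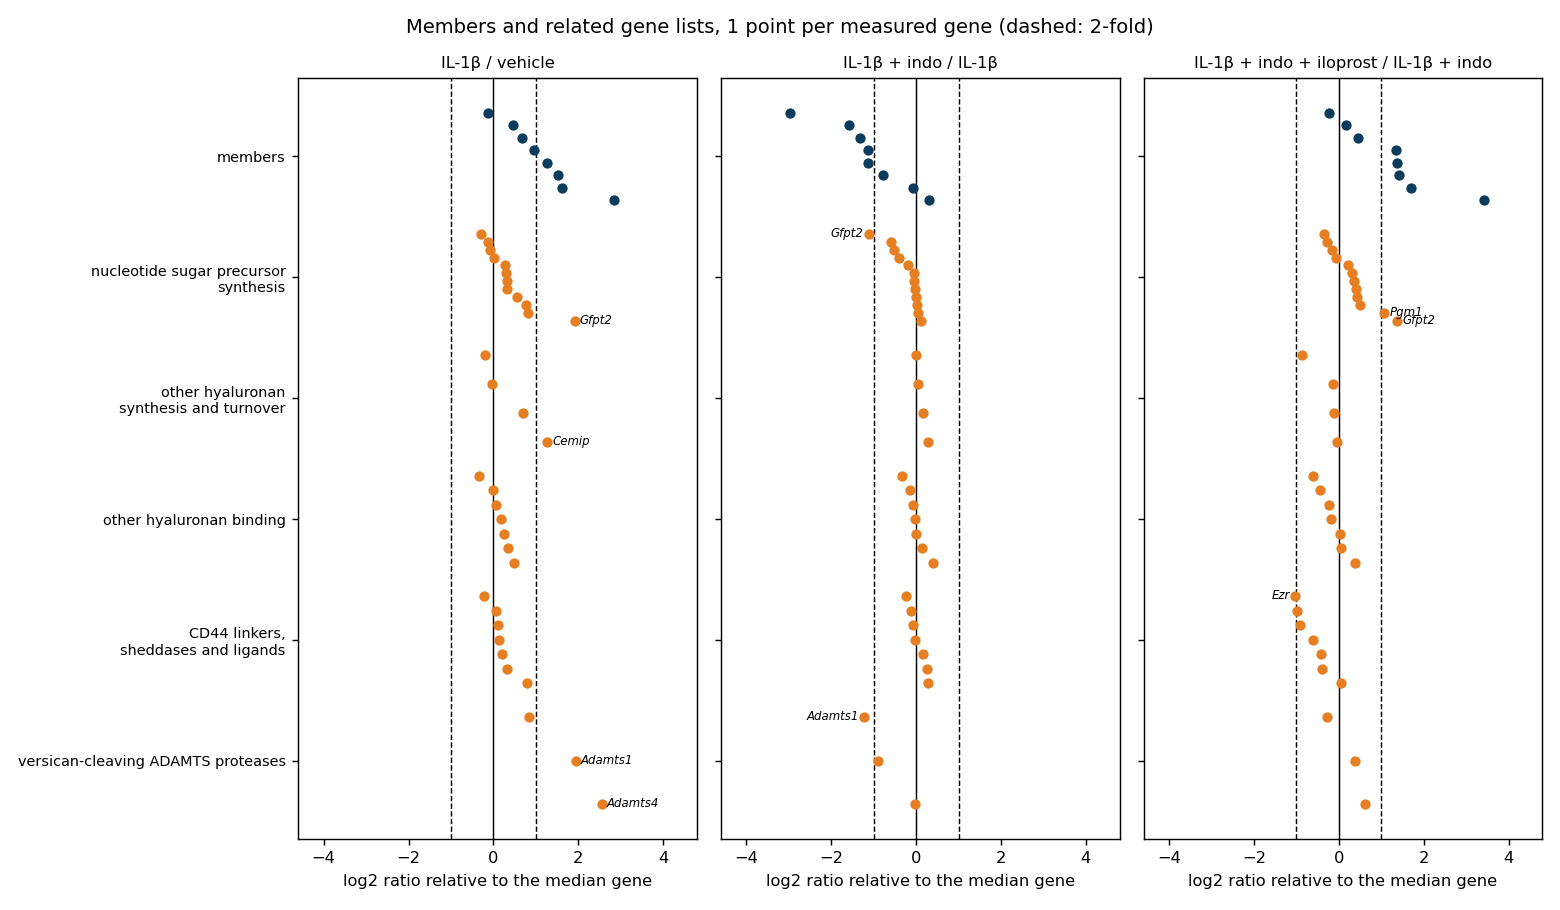
Log2 ratio relative to the median gene of each measured gene in the members (dark points) and in 5 related lists (orange points), in 3 comparisons, with dashed lines at 2-fold and names for list genes past it; bounds are drawn at their limit. Gfpt2 is named in all 3 panels. The points of hyaluronan-binding genes other than the members lie within 2-fold, as do most of all genes measured. Among them Hmmr is only a lower bound for IL-1β against vehicle.

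Genes with a pattern most like that of a member were found by the Euclidean distance between log2 signals over the 4 arrays, each gene centred on its own mean, among 6222 genes above the floor on every array. For Uap1 they were Procr, Pkdcc, Rdh10, Kcne4 and Medag, at distances from 0.87 to 1.30. Procr read 346.6, 3264.5, 639.8 and 3096.7. For Ugdh they were Tmem41a, Slc16a1, Gfpt2, Ackr3 and Il33, at 0.14 to 0.31, and Slc16a1, a lactate transporter gene, read 264.7, 921.9, 446.0 and 1078.2. For Has2 they were Ddit4, Rassf2, Pappa, Smim3 and Ackr3, at 0.28 to 0.38. For Vcan they were Smim3, Sdc1, Pappa, Adam8 and Il1r1, at 0.14 to 0.24, and Sdc1, the gene of the proteoglycan syndecan 1, read 655.6, 1319.1, 783.1 and 1761.2. For Tnfaip6 they were Adamts5, Wnt5a, Ece1, Gpd2 and Pde4b, at 0.31 to 0.36, and Adamts5 read 331.1, 693.4, 332.1 and 434.6. Among the members themselves, Has2 and Vcan were closest, at 0.39, and Uap1 and Hyal2 farthest apart, at 3.13.

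Cell markers were compared in the same way. The median log2 ratio of the 16 fibroblast markers was -0.01 for IL-1β, 0.00 for indomethacin and 0.03 for iloprost against indomethacin, and 0 were past 2-fold in these 3 comparisons. The 17 macrophage markers had medians of -0.04, -0.08 and -0.16, with 0, 0 and 1 past 2-fold, the last being Fcgr1 at -1.46. With both drugs against vehicle, 4 of the 17 were past 2-fold, Fcgr3 higher at 1.43 and Adgre1, Fcgr1 and Cybb lower, at -1.05 for Adgre1, -1.45 for Fcgr1 and just past 2-fold for Cybb, with a median of -0.16, and the fibroblast marker Pdpn was higher at 1.42. With both drugs against IL-1β alone, Fcgr1 was lower at -1.27 and the macrophage median was -0.26, and 0 fibroblast markers were past 2-fold. Of all genes, 0.95% were higher and 2.37% lower there, and 2.72% higher and 3.34% lower with both drugs against vehicle. In the other comparisons 0.245% to 1.98% of all genes were higher and 0.323% to 3.19% lower. For IL-1β and indomethacin against vehicle, 0 markers of either list were past 2-fold, and the macrophage markers reached 0.64. Their summed signals were 31390 on the vehicle array, 37141 on the IL-1β array, 31172 with indomethacin added and 30143 with iloprost added as well, and those of the fibroblast markers 37001, 41592, 37150 and 39373. Both sums were highest on the IL-1β array, which was also the brightest. The part of these differences in the members' values was not tested.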

How the data were processed

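Per the labels' protocols, labelling and hybridisation followed the standard Affymetrix method. The authors deposited 1 linear intensity for each probe set on each array. How probes were summarised, background-corrected and scaled is not given in the sources used here. Names come from the platform's annotation, which may be outdated, and 0 symbols changed when checked by gene number against RefSeq of GRCm38.p6. Of 22690 probe sets, 1606 are unnamed here, 691 name several genes and 20393 name 1 gene, of which 13 control probe sets were left out.

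Signals were set to at least the 50th percentile of all values and log2 was taken (Python 3.11.15, pandas 2.3.3). Of several probe sets, the one with the highest mean log2 value stood for the gene. Each array was centred on the median of the 6222 genes whose signal exceeded the floor throughout. Genes were counted at 2-fold. No test was run, since each of the 4 groups has 1 array. The steps were tested on simulated data with large changes in genes well above the floor. Bounds at the floor and changes near 2-fold were not covered.

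All members are named. Of the related lists, named genes are up to 4 past 2-fold per list and comparison and those tied directly to a member. For 5 members, the 5 most alike genes are named. Cell markers are given as counts, medians and sums, with those past 2-fold named. The members and lists were chosen with earlier results of these data known. Tlr2, Rdx, Msn, Adam10, Adam17, Mmp9, Mmp14, Uap1l1, Gusb and Hexa were named after their values were seen.

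Alternatives were signals as deposited, quantile normalization, floors at the 25th and 65th percentile, a pseudocount of 16 without a floor, and the mean of all probe sets.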

Additional observations from a re-analysis of the deposited data

How the results depend on the processing

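The 19 member ratios past 2-fold kept their direction under all 6 alternatives, and all 19 stayed past 2-fold under each except the floor at the 65th percentile. There 15 did, and the other 4 were the Has1 bounds, which a higher floor shrinks by construction. With that floor the median log2 ratio of the members was 0.94 for iloprost against IL-1β and indomethacin, and 0.92 for both drugs against vehicle. As deposited, the members' median for IL-1β against vehicle was 1.34. With the floor at the 25th percentile, 1 member, Has1, was at least 2-fold lower with IL-1β and indomethacin than with vehicle, where both values lie under the main floor. No other count of members moved by more than 1.5 times, and no other median by more than the SD between probe sets, under these alternatives. With the mean of all probe sets, Uap1 stood at 1.72, -1.70 and 1.93 for IL-1β, indomethacin and iloprost against indomethacin, since 2 of its probe sets are at or near the floor. No paired analysis was possible because each group has 1 array. Signal over background limits Has1 most, since it lies near the floor. With single arrays, differences between dishes cannot be told apart from the treatments.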

Other observations

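Sulfated glycosaminoglycans, such as chondroitin and heparan sulfate, draw on the same nucleotide sugars as hyaluronan. Of 21 measured genes for their synthesis, 2 were higher by 2-fold or more in the IL-1β dish than in the vehicle dish, where 1.72% of all genes were, and the list median was -0.03. Csgalnact1, which starts chondroitin chains, read 165.0 on the vehicle array, 457.7 on the IL-1β array, 236.2 with indomethacin added and 468.4 with iloprost added as well, at log2 ratios of 1.25, -0.81 and 0.98. Chst11, a chondroitin sulfotransferase gene, read 21.1 with vehicle, under the floor, then 98.1, 57.5 and 87.2, with a bound of at least 1.16 for IL-1β against vehicle. With indomethacin against IL-1β and with iloprost against indomethacin, 0 genes of this list were past 2-fold, and the medians were -0.02 and 0.18. Of all genes, 0.245% and 1.98% were higher there, and 0.664% and 3.19% lower. The heparan sulfate polymerase genes Ext1 and Ext2 were at 0.03 and -0.37 with IL-1β. Ogt and Oga, which add and remove single N-acetylglucosamine residues on proteins, stayed between -0.15 and 0.56 in the 6 comparisons.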
